A study of Mus musculus with 12 samples.

Results

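Immediate early genes known to respond to tissue dissociation were described in 4 cell populations sorted from mouse back skin. The 10 genes, chosen by symbol, were Fos, Fosb, Jun, Junb, Atf3, Egr1, Ier2, Socs3, Dusp1 and Zfp36, and each matched 1 of the 24692 entries of the expression table. Socs3, Dusp1 and Zfp36, which encode inhibitors of signalling and of messenger stability, were several times higher in dermal papilla and dermal stem cells than in dermal sheath and interfollicular dermis. Fos and Fosb passed in 3 of the 4 comparisons between those pairs of populations. Jun, Atf3 and Ier2 passed in none of the 6 comparisons, though each passed in at least 1 under some alternative setting.

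Immediate early genes are switched on within minutes of a stimulus, from transcription factors already present in the cell and without new protein synthesis. Kinase cascades act on serum response factor, its ternary complex partners and CREB at their promoters, and the messengers are short-lived. Fos, Fosb, Jun, Junb and Atf3 encode subunits of the dimeric AP-1 and ATF transcription factors, and Egr1 encodes a zinc finger transcription factor. Dusp1 encodes a phosphatase that switches off MAP kinases, Socs3 an inhibitor of JAK-STAT signalling downstream of the interleukin 6 receptor, and Zfp36 a protein (tristetraprolin) that binds AU-rich elements and promotes messenger decay. Enzymatic digestion of tissue to free cells is known to induce this group of genes, so their messengers in sorted cells can reflect the tissue, the digestion or both.

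RNA was sequenced on the SOLiD platform in 12 libraries, 3 from each population, of male mice 26 to 27 days after birth whose follicles were in early anagen, the start of hair growth. The populations were dermal papilla (replicates 1, 2 and 4), dermal sheath (replicates 4, 5 and L1), dermal stem cells (replicates 1, 2 and 4) and interfollicular dermis (replicates 1, 2 and 6), and values of a population are listed in that order. All mice carried the Sox2:GFP reporter, a green protein under Sox2 control, and the aSMA:dsRed reporter, a red protein under smooth muscle actin control. All skin was digested with dispase and collagenase, stained with antibodies that the labels do not name, and sorted by flow cytometry. No library of undigested skin was analysed here, so levels in the tissue and levels set by digestion and sorting cannot be told apart. The labels do not say whether the replicates are separate mice, and each p-value therefore reflects the spread among 12 libraries, part or all of which could be technical.

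Markers of the sorted types were unevenly spread. Fibroblast markers, 8 genes, summed to 13208 to 23830.5 FPKM (sequenced fragments corrected for transcript length and for library size) in dermal papilla, 966 to 1919 in dermal sheath, 9364 to 11842 in dermal stem cells and 822 to 1551 in interfollicular dermis. Trp63, an epidermal transcription factor, averaged 16.1 ± 8.04 FPKM in dermal papilla, 121 ± 24.2 in dermal sheath, 15.5 ± 5.84 in dermal stem cells and 89.0 ± 11.7 in interfollicular dermis (SD, n = 3 each). Acta2, whose promoter drives the red reporter, averaged 49.3 ± 23.1 FPKM in dermal sheath and 872 ± 26.0 FPKM in dermal stem cells. The sum of 9 keratinocyte markers was 1082 to 3214 FPKM in dermal papilla, 958 to 1131 in dermal sheath, 603 to 1161 in dermal stem cells and 975 to 1354 in interfollicular dermis. Of that list Krt5, Itgb4 and Epcam also averaged higher in sheath and interfollicular dermis than in papilla and stem cells. Krt1, Krt10 and, by little, Cdh1 were highest in papilla, Krt10 at 1528 ± 829 FPKM against 53.4 ± 45.2 in sheath. Krt14 and Krt15 followed neither order. The low fibroblast markers and the Trp63 level go against the labels of dermal sheath and interfollicular dermis. The Krt1 and Krt10 levels go against unmixed dermal papilla. All labels are used below as names only. The sum of FPKM ran from 181683 to 262695 per library, and read counts behind the values are unknown. In bulk samples fewer cells of a type and less RNA per cell cannot be told apart.

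The sequences around the promoters of the 3 feedback genes and of Fos and Jun are shown because the feedback genes had the largest F statistics of the 10, and because Fos and Jun, partners in AP-1, did and did not pass. Each run is the 200 bases before the start given in the RefSeq promoter set, 5′ to 3′ on the gene's own strand (GRCm38.p6). Motif matches are in capitals. For Dusp1, Zfp36, Fos and Jun this is the start of the RefSeq gene. The Socs3 run lies inside the RefSeq gene, which spans chr11:117966079-117970336, so its start is an internal one.
Socs3, chr11:117969367-117969566, minus strand: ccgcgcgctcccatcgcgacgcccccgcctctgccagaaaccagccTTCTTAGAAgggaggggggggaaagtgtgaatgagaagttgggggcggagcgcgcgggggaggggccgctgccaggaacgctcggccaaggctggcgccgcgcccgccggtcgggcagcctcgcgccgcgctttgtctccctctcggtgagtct
Dusp1, chr17:26508473-26508672, minus strand: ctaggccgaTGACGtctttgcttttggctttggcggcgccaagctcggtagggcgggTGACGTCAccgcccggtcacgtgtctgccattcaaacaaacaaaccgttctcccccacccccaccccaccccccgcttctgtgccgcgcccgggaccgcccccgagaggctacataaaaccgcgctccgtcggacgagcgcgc
Zfp36, chr7:28379229-28379428, minus strand: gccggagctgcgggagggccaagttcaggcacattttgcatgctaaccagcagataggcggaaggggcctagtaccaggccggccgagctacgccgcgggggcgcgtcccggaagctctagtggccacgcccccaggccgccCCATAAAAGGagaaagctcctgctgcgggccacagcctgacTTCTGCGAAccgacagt
Fos, chr12:85473690-85473889, plus strand: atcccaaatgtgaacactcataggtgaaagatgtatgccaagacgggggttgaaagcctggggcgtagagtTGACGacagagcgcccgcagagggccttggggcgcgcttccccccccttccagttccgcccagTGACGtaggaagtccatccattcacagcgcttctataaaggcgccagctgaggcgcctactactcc
Jun, chr4:95052223-95052422, minus strand: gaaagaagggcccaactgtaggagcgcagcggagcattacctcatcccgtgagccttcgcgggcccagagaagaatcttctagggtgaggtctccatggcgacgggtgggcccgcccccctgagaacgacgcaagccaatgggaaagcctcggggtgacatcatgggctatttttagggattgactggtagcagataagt

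The 300 bases from 250 before to 50 after the start were searched on both strands for 5 motifs. Positions count from the start in the promoter set, which for Socs3 and Fosb lies inside the RefSeq gene. They were the CREB site TGACGTCA, its part TGACG, the AP-1 site TGANTCA, the STAT site TTCNNNGAA and the serum response (CArG) box. Dusp1 held TGACGTCA at position −143 from the start and a second TGACG at −191, and TGACGTCA occurred in 1.79% of 32851 RefSeq promoters. Zfp36 held a CArG box at −58, a motif present in 1.63% of promoters, and TTCTGCGAA at −17. Socs3 held TTCTTAGAA at −154, and TTCNNNGAA occurred in 8.30% of promoters. Fos held TGACG at −129 and −66, as did Fosb once at −60, Junb once at −106 and Atf3 once at −7 on the other strand, against 20.8% of promoters with this motif. These windows hold no match of the 5 motifs for Jun. Promoters were matched for 8 of the 10 genes. A match describes letters only.

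The 3′ untranslated regions of 3 of the 10 genes hold the nonamer TTATTTATT, the AU-rich core to which the Zfp36 protein binds, against 8.09% of 11912 tested genes with an annotated region. The sites are shown for their link to messenger decay, in 27-base windows with the nonamer in capitals.
Fos, chromosome 12: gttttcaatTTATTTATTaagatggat
Dusp1, chromosome 17, first site: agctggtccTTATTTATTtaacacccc
Dusp1, chromosome 17, second site: tttttacctTTATTTATTtttgtgtag
Zfp36, chromosome 7: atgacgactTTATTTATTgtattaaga
At least 3 ATTTA pentamers were present in the regions of 6 of the 10 genes, against 38.2% of tested genes. Jun, Junb and Ier2 are single-exon genes in the GENCODE annotation, against 2.25% of tested genes.

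All 10 genes were measured above 0 in all 12 libraries and all passed the filter of at least 1 FPKM in at least 3 libraries. Fos was among the most abundant messengers everywhere, ranked between 13 and 102 of the 24692 entries, and Jun between 19 and 108. Socs3 had the widest span of rank, 155 to 3436. Together the 10 genes summed to 2715 ± 211 FPKM in dermal papilla, 1866 ± 397 in dermal sheath, 3607 ± 128 in dermal stem cells and 1424 ± 307 in interfollicular dermis (SD, n = 3 each). The 3 stem cell sums, 3521 to 3754 FPKM, lay above those of every other library. The sums were 0.578% to 1.54% of a library's total FPKM.

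**Figure D1:**
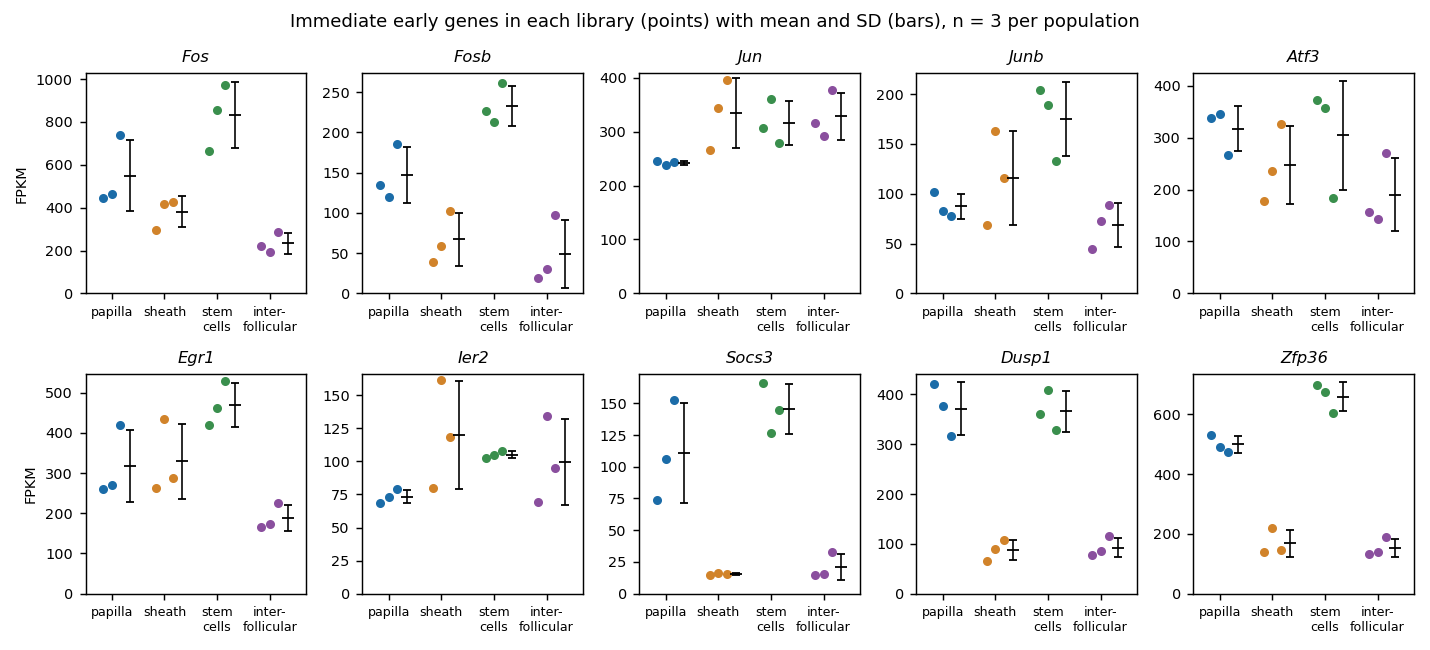
FPKM (y axis, linear) of the 10 genes in each library (points), by population, with mean and SD beside the points (n = 3 each). Socs3, Dusp1 and Zfp36 lie high in papilla and stem cells and low in sheath and interfollicular dermis without overlap, while Jun lies between 238 and 396 FPKM in all libraries.

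The feedback genes had the largest F statistics of the 10 among the populations, 52.5 for Socs3, 45.5 for Dusp1 and 38.5 for Zfp36, against 13.8 for Fos, the next. Socs3 had 73.8, 106 and 152 FPKM in dermal papilla, 14.6, 16.2 and 15.5 in sheath, 166, 127 and 145 in stem cells, and 14.5, 15.4 and 33.0 in interfollicular dermis. Every papilla and stem cell library lay above every sheath and interfollicular library. The difference in log2(FPKM + 1) was 2.70 ± 0.31 (SE) for papilla minus sheath, with an adjusted p of 3.29e-05 from limma.

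Dusp1 had 421, 377 and 316 FPKM in dermal papilla, 66.0, 89.4 and 108 in sheath, 361, 409 and 328 in stem cells, and 77.0, 85.6 and 115 in interfollicular dermis. Again the papilla and stem cell libraries stood apart from the rest with no overlap. Its log2 difference for papilla minus sheath was 2.09 ± 0.25 (limma, adjusted p = 3.73e-05), and for papilla minus stem cells 0.02, with a 95% interval of −0.52 to 0.55.

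Zfp36 had 530.5, 493 and 476 FPKM in dermal papilla, 138, 220.2 and 146 in sheath, 697, 676 and 606 in stem cells, and 133, 140.4 and 189 in interfollicular dermis. The 3 stem cell libraries were the highest, the 3 papilla libraries next, and sheath and interfollicular libraries overlapped. The log2 difference for papilla minus sheath was 1.60 ± 0.25 (limma, adjusted p = 0.000241), and for sheath minus stem cells −2.0 ± 0.25 (limma, adjusted p = 5.52e-05). The stem cell over papilla difference did not pass, at −0.40 for papilla minus stem cells with a 95% interval of −0.93 to 0.13.

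Summed, Socs3, Dusp1 and Zfp36 reached 981 ± 40.8 FPKM in dermal papilla, 271 ± 53.6 in dermal sheath, 1172 ± 80.1 in dermal stem cells and 268 ± 60.4 in interfollicular dermis. Immune markers (6 genes) also varied, with sums of 225 to 579.7 FPKM in dermal papilla, 24.1 to 241 in dermal sheath, 29.3 to 722 in dermal stem cells and 58.9 to 164 in interfollicular dermis. In stem cell replicate 4, where these immune markers summed to 29.3 FPKM, Socs3 had 145, Dusp1 328 and Zfp36 606 FPKM, above every sheath and interfollicular library. The part of immune cells in these levels was not tested. The fibroblast marker sums given above split the populations in the same way as these 3 genes. Proliferation markers (4 genes) did so in the opposite direction, with 7.88 to 18.7 FPKM in dermal papilla, 213 to 257 in dermal sheath, 9.86 to 33.2 in dermal stem cells and 143 to 168 in interfollicular dermis. Cell make-up and population cannot be told apart here.

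Among the AP-1 genes, Fos and Fosb were highest in dermal stem cells. Fos had 446, 464 and 739 FPKM in dermal papilla, 297, 418 and 429 in sheath, 666, 857 and 973 in stem cells, and 221, 191 and 288 in interfollicular dermis. Stem cells and papilla overlapped through papilla replicate 4, and all interfollicular libraries lay below all others. The log2 difference was 1.21 ± 0.30 for papilla minus interfollicular dermis (limma, adjusted p = 0.00603), −1.13 ± 0.30 for sheath minus stem cells (limma, adjusted p = 0.00841) and 1.83 ± 0.30 for stem cells minus interfollicular dermis (limma, adjusted p = 0.000489). With quantile normalization none of the 3 passed, with adjusted p of 0.229, 0.881 and 0.0649 in that order from limma, and the differences were 0.64, −0.09 and 1.0. Without the filter on low values the first 2 did not pass either, at limma adjusted p of 0.0567 and 0.0725. Papilla minus sheath was 0.51 (limma, adjusted p = 0.171) and passed with median-of-ratios scaling (0.96; limma, adjusted p = 0.0215). With the replicate block in all 12 libraries, where the sheath mean rests on replicate 4 alone, the difference was 1.20.

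Fosb, a paralog of Fos, had 134, 120.0 and 186 FPKM in dermal papilla, 39.1, 59.3 and 103 in sheath, 226, 213 and 261 in stem cells, and 19.5, 30.3 and 97.1 in interfollicular dermis. All stem cell libraries lay above all papilla libraries, and all papilla libraries above all sheath and interfollicular libraries. The log2 difference was 1.87 ± 0.48 for papilla minus interfollicular dermis (limma, adjusted p = 0.00852), −1.89 ± 0.48 for sheath minus stem cells (limma, adjusted p = 0.00748) and 2.55 ± 0.48 for stem cells minus interfollicular dermis (limma, adjusted p = 0.00148). Papilla minus sheath was 1.20 ± 0.48 and did not pass (limma, adjusted p = 0.0548), though it passed in 8 of 22 alternative settings. Among them were the fits without sheath replicate L1 or interfollicular replicate 1 or 6 (limma, adjusted p = 0.0271, 0.0339 and 0.00947). The 8 include the replicate block in all 12 libraries (2.12), where the sheath mean rests on replicate 4 alone.

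Jun, the common dimer partner of Fos proteins, had 245, 238 and 244 FPKM in dermal papilla, 266, 343 and 396 in sheath, 307, 361 and 279.8 in stem cells, and 316, 293 and 376 in interfollicular dermis. The papilla libraries were the lowest 3 of the 12, and the other populations overlapped. No difference passed, and the log2 values ran from −0.45 for papilla minus sheath, with a 95% interval of −0.95 to 0.05, to 0.07 for sheath minus stem cells. With quantile normalization Jun passed as lower in papilla minus sheath (−1.10), papilla minus interfollicular dermis (−1.03) and stem cells minus interfollicular dermis (−0.81), and as higher in sheath minus stem cells (0.89).

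Junb had 102, 82.3 and 77.6 FPKM in dermal papilla, 68.4, 163 and 116 in sheath, 204, 189 and 133 in stem cells, and 44.5, 72.6 and 88.5 in interfollicular dermis. Stem cells lay above papilla and interfollicular dermis without overlap, and sheath overlapped all 3. Stem cells minus interfollicular dermis was 1.37 ± 0.33 (limma, adjusted p = 0.00644). Papilla minus stem cells was −0.98 ± 0.33 and did not pass (limma, adjusted p = 0.0875), but it passed when libraries with the same replicate number were treated as pairs (limma, adjusted p = 0.0205 with the 6 libraries compared and 0.0313 with all 12). Sheath minus stem cells, −0.65 (limma, adjusted p = 0.129), passed without sheath replicate 5 (limma, adjusted p = 0.0486). Junb did not pass the F test without stem cell replicate 1 or 2 (limma, adjusted p = 0.0668 and 0.0608).

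Atf3, a stress-induced factor of the ATF family, averaged 317 ± 43.3 FPKM in dermal papilla, 246 ± 75.2 in dermal sheath, 304 ± 105 in dermal stem cells and 189.9 ± 70.2 in interfollicular dermis (SD, n = 3 each). Its range within the stem cells, 183 to 373 FPKM, overlapped every other population, and no difference passed in the main fit. Papilla minus interfollicular dermis was 0.79 (limma, adjusted p = 0.0851) and stem cells minus interfollicular dermis 0.67 (limma, adjusted p = 0.148), and each passed in 4 of 22 alternative settings. With same-numbered libraries blocked together across all 12 they were 1.30 (limma, adjusted p = 0.00353) and 1.18 (limma, adjusted p = 0.00575), and Atf3 passed the F test (limma, adjusted p = 0.00849). That block also covers sheath and interfollicular libraries, whose numbers were not found to pair them. The first also passed without interfollicular replicate 6 (limma, adjusted p = 0.0285) and the second without stem cell replicate 4 (limma, adjusted p = 0.0436). Ier2, a nuclear immediate early protein, averaged 73.4 ± 5.24 FPKM in dermal papilla, 119.8 ± 41.1 in dermal sheath, 105 ± 2.75 in dermal stem cells and 99.3 ± 32.6 in interfollicular dermis (SD, n = 3 each). Papilla libraries lay below stem cell and sheath libraries without overlap, and papilla minus sheath, −0.64, did not pass (limma, adjusted p = 0.0732). Without sheath replicate 4 it passed, at −0.91 (limma, adjusted p = 0.0219).

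Egr1 had 259.9, 271 and 420.3 FPKM in dermal papilla, 264, 435 and 289 in sheath, 419.6, 461 and 529 in stem cells, and 165, 174 and 225 in interfollicular dermis. All interfollicular libraries lay below all others, and the other populations overlapped. Stem cells minus interfollicular dermis was 1.32 ± 0.28 (limma, adjusted p = 0.00286), and did not pass with quantile normalization, where the difference was 0.61 (limma, adjusted p = 0.149). Papilla minus interfollicular dermis was 0.73 ± 0.28 and did not pass (limma, adjusted p = 0.0513), though it passed in 7 of 22 alternative settings, among them the replicate block in all 12 libraries (0.71; limma, adjusted p = 0.0279) and the fits without sheath replicate 5 or interfollicular replicate 6 (limma, adjusted p = 0.0432 and 0.0358). Sheath minus stem cells was −0.54 (limma, adjusted p = 0.135) and passed with median-of-ratios scaling (−0.76, limma adjusted p = 0.0475). With the same block, where the sheath mean rests on replicate 4 alone, it was −1.13.

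Counted over the 10 genes, the moderated F test among the 4 populations was passed by 7, all but Jun, Atf3 and Ier2, where 56.8% of the 12774 tested genes passed. It was passed by 5 with quantile normalization or without the filter on low values. For dermal papilla minus dermal sheath, 3 of 10 were higher and 0 lower, against 16.4% of tested genes higher and 33.4% lower, and 7 did not overlap, against 55.7% of tested genes. The median log2 difference of the 10 was 0.45, and that of all tested genes −0.36. For dermal papilla minus interfollicular dermis, 5 of 10 were higher and 0 lower, against 13.7% and 28.6% of tested genes, with medians of 1.0 for the 10 and −0.32 for all. Here 7 did not overlap, against 48.5% of tested genes. These comparisons share libraries and are not independent.

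For dermal sheath minus dermal stem cells, 0 of 10 were higher and 5 lower, against 24.3% higher and 19.6% lower among tested genes, with medians of −0.89 for the 10 and 0.13 for all, and 5 did not overlap, against 58.7%. For dermal stem cells minus interfollicular dermis, 7 of 10 were higher and 0 lower, against 17.9% and 19.7% of tested genes, with medians of 1.60 for the 10 and −0.14 for all, and 7 did not overlap, against 52.7%. The other 2 comparisons gave 0 calls by limma in the main fit, which did not pair libraries. With the 6 papilla and stem cell libraries paired by replicate number, Junb passed (limma, adjusted p = 0.0205). In dermal papilla minus dermal stem cells 8.69% of tested genes passed in either direction in the main fit. Only Junb had an unadjusted p under 0.05 there, and 5 of 10 genes did not overlap, against 30% of tested genes. In dermal sheath minus interfollicular dermis, where 2.26% passed, Fos and Egr1 had an unadjusted p under 0.05, and they were the 2 of 10 that did not overlap, against 21.6% of tested genes.

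**Figure D2:**
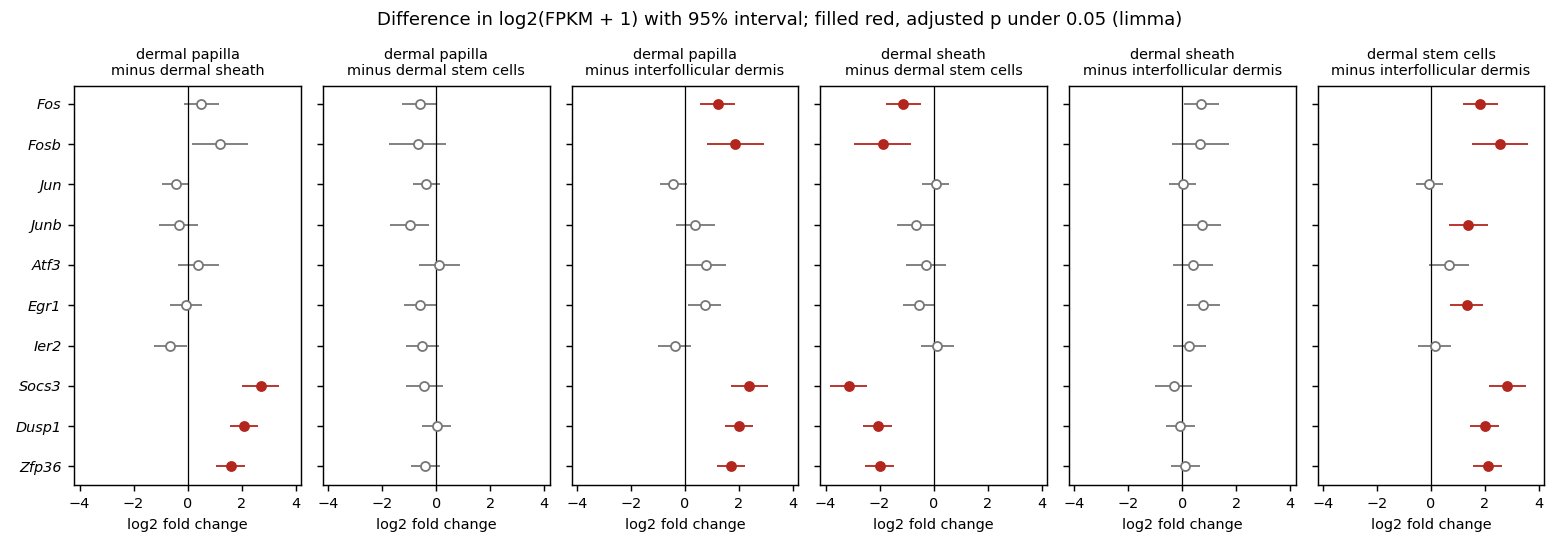
Difference in log2(FPKM + 1) (x axis) with 95% interval for each gene (rows) in the 6 comparisons (panels), with differences of adjusted p under 0.05 by limma filled in red. Socs3, Dusp1 and Zfp36 are filled in the 4 comparisons between papilla or stem cells and sheath or interfollicular dermis, and none is filled in the papilla minus stem cells and sheath minus interfollicular panels.

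The balance of all calls depended on scaling. The share of calls that were higher was 32.9% for papilla minus sheath, 26.6% for papilla minus stem cells, 32.3% for papilla minus interfollicular dermis and 55.4% for sheath minus stem cells. With median-of-ratios scaling these shares were 52.1%, 47.3%, 53% and 44.7% in the same order, and with quantile normalization 43.4%, 51.4%, 44.7% and 56.5%. Median-of-ratios scaling placed the median of all tested genes at 0.00 for papilla minus sheath, against −0.36 as deposited. Socs3, Dusp1 and Zfp36 passed in the same direction under every alternative in the 4 comparisons between papilla or stem cells and sheath or interfollicular dermis. Their log2 differences came closest to 0 at 0.96 (Zfp36, papilla minus sheath) and were farthest from it at −3.48 (Socs3, sheath minus stem cells).

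Ratios within a library do not depend on a scaling by 1 factor per library, such as median-of-ratios, but quantile normalization can change them. The ratio of Socs3 to Jun was 0.457 ± 0.162 in dermal papilla, 0.0471 ± 0.00790 in dermal sheath, 0.470 ± 0.103 in dermal stem cells and 0.0621 ± 0.0224 in interfollicular dermis (SD, n = 3 each). The ratio of Zfp36 to Jun was 2.06 ± 0.108 in dermal papilla, 0.510 ± 0.137 in dermal sheath, 2.11 ± 0.207 in dermal stem cells and 0.468 ± 0.0410 in interfollicular dermis. For both ratios papilla and stem cell libraries overlapped each other and lay above every library of the other populations.

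The ratio of Dusp1 to Jun was 1.53 ± 0.217 in dermal papilla, 0.260 ± 0.0120 in dermal sheath, 1.16 ± 0.0240 in dermal stem cells and 0.281 ± 0.0326 in interfollicular dermis. Here all papilla libraries, from 1.29, lay above all stem cell libraries, up to 1.18. The ratio of Fos to Jun was 2.27 ± 0.664 in dermal papilla, 1.14 ± 0.0704 in dermal sheath, 2.68 ± 0.702 in dermal stem cells and 0.707 ± 0.0557 in interfollicular dermis. For this ratio sheath libraries, from 1.08, lay above interfollicular libraries, up to 0.765. These ratios are descriptions without a test, and a ratio shows unequal change only.

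**Figure D3:**
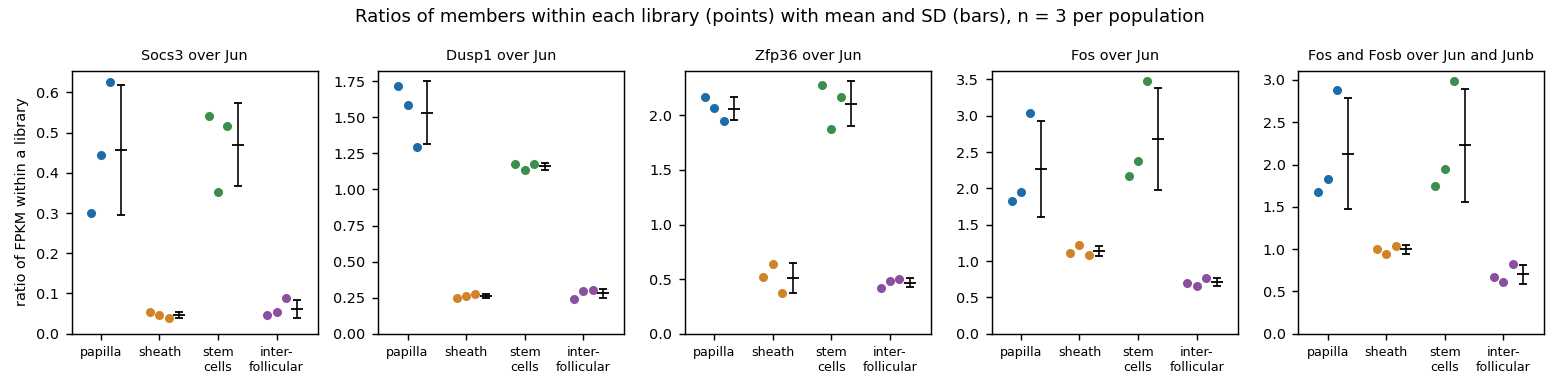
Ratio of FPKM within each library (y axis, linear; points) for pairs of the genes, by population, with mean and SD (n = 3 each). The feedback genes over Jun form a high group of papilla and stem cell libraries and a low group of sheath and interfollicular libraries, and Fos over Jun is lowest in interfollicular dermis at 0.654 to 0.765.

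Some libraries were extreme within their population for most of the 10 genes. In dermal sheath, replicate 4 was the lowest of the 3 libraries for all 10 genes, and it was the lowest for 41.2% of tested genes. In interfollicular dermis, replicate 6 was the highest for 9 of 10 genes, all but Ier2, and for 40.0% of tested genes. Fosb shows the width of this spread, with 97.1 FPKM in that library and 19.5 and 30.3 FPKM in the others. Depth relative to stem cell replicate 2, read from low values, was 0.707 for sheath replicate 4 and 1.95 for interfollicular replicate 6, and its part in these levels was not tested.

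Replicate 4 of dermal papilla and replicate 4 of dermal stem cells shared extremes. Fos, Fosb, Egr1 and Ier2 were highest of 3 in both libraries, 4 of 10 genes against 15.6% of tested genes. Junb, Atf3, Dusp1 and Zfp36 were lowest of 3 in both, 4 of 10 against 24.1% of tested genes. Atf3 had 267 FPKM in papilla replicate 4, against 338 and 346 in the other papilla libraries, and 183 in stem cell replicate 4, against 373 and 357. These libraries also had the lowest immune marker sums of their populations, 225 FPKM in papilla replicate 4 and 29.3 FPKM in stem cell replicate 4. Their endothelial, melanocyte, keratinocyte and pericyte marker sums were the lowest of their populations too. Their dermal papilla marker sums were the highest, at 1123 and 221 FPKM. The part of cell make-up in the pattern was not tested.

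The wider immediate early programme was read from lists of related genes. Of 37 tested related immediate early factors, 12 were higher and 5 lower in papilla minus sheath, 16 and 2 in papilla minus interfollicular dermis, 2 and 14 in sheath minus stem cells, and 18 and 2 in stem cells minus interfollicular dermis. As shares these were 32.4% and 13.5%, 43.2% and 5.41%, 5.41% and 37.8%, and 48.6% and 5.41%, against 16.4% and 33.4%, 13.7% and 28.6%, 24.3% and 19.6%, and 17.9% and 19.7% of all tested genes. Their median log2 differences were 0.47, 0.58, −0.51 and 0.66 in that order, with the medians of all genes as given above. Klf2, a zinc finger factor, averaged 35.3 ± 13.8 FPKM in dermal papilla, 6.30 ± 3.1 in dermal sheath, 81.6 ± 8.66 in dermal stem cells and 5.85 ± 2.25 in interfollicular dermis (SD, n = 3 each). Egr3, a relative of Egr1, went the other way, with −1.78 ± 0.40 for papilla minus sheath (limma, adjusted p = 0.00277) and −1.91 ± 0.40 for stem cells minus interfollicular dermis (limma, adjusted p = 0.00271). In papilla minus stem cells 0 of the 37 were higher and 1, Klf2, lower, called in 8 of 21 alternatives and lost, among others, without papilla replicate 1 or 4 or any stem cell replicate. In sheath minus interfollicular dermis 1, the kinase gene Sgk1, was higher and 0 lower, called in 19 of 21 alternatives.

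Among 12 tested AP-1 partners, 2 were higher and 1 lower in papilla minus sheath, 2 and 0 in papilla minus interfollicular dermis, 1 and 3 in sheath minus stem cells, and 5 and 1 in stem cells minus interfollicular dermis. In sheath minus stem cells 8.33% were higher and 25.0% lower, against 24.3% and 19.6% of all tested genes. The share called higher, 16.7% in both papilla minus sheath and papilla minus interfollicular dermis, was near that of all tested genes, 16.4% and 13.7%, and in stem cells minus interfollicular dermis it was 41.7% against 17.9%. That last count fell to 2 without stem cell replicate 1 and to 3 without interfollicular replicate 1 or 2. Jdp2, which encodes a repressor that dimerizes with Jun proteins, averaged 32.4 ± 4.69 FPKM in dermal papilla, 3.93 ± 1.18 in dermal sheath, 68.6 ± 16.1 in dermal stem cells and 2.57 ± 1.56 in interfollicular dermis. Its log2 difference was 2.78 ± 0.32 for papilla minus sheath (limma, adjusted p = 3.22e-05). By limma 0 of the 12 passed in papilla minus stem cells, 3 with an unadjusted p under 0.05, and 0 in sheath minus interfollicular dermis, also 0 unadjusted.

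Of 26 other feedback regulators tested, 5 were higher and 3 lower in papilla minus sheath, 7 and 2 in papilla minus interfollicular dermis, 4 and 3 in sheath minus stem cells, and 6 and 1 in stem cells minus interfollicular dermis. The 19.2% called higher in papilla minus sheath was near the 16.4% of all tested genes, and the 15.4% higher and 11.5% lower in sheath minus stem cells lay below 24.3% and 19.6%. The shares higher were 26.9% against 13.7% in papilla minus interfollicular dermis and 23.1% against 17.9% in stem cells minus interfollicular dermis. Dusp6, a phosphatase for ERK, averaged 14.2 ± 5.11 FPKM in dermal papilla and 81.1 ± 37.7 FPKM in dermal sheath, a log2 difference of −2.40 ± 0.37 (limma, adjusted p = 0.000225). Errfi1, an inhibitor of the EGF receptor, averaged 210.4 ± 4.83 FPKM in dermal papilla and 67.3 ± 30.2 FPKM in dermal sheath, a log2 difference of 1.72 ± 0.32 (limma, adjusted p = 0.000878). In papilla minus stem cells 1 of the 26, Dusp10, a MAP kinase phosphatase gene, was higher and 0 lower. It was called in 10 of 21 alternatives and lost, among others, without any 1 papilla replicate or stem cell replicate 1 or 4. In sheath minus interfollicular dermis 0 passed by limma, 5 with an unadjusted p under 0.05.

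Socs3 is a known target of interleukin 6 signalling through STAT3. Of 12 genes of the interleukin 6 and STAT3 axis, 7 were higher and 0 lower in papilla minus sheath, 7 and 0 in papilla minus interfollicular dermis, 0 and 4 in sheath minus stem cells, and 6 and 0 in stem cells minus interfollicular dermis. The share higher was 58.3% in papilla minus sheath and in papilla minus interfollicular dermis, against 16.4% and 13.7% of all tested genes. The 6 of stem cells minus interfollicular dermis became 1 or 2 without stem cell replicate 1 or 2 or interfollicular replicate 1 or 2. By limma 0 passed in papilla minus stem cells, 2 with an unadjusted p under 0.05, and 0 in sheath minus interfollicular dermis, also 0 unadjusted. Il6, the cytokine, had 341, 714 and 419.9 FPKM in dermal papilla, 52.6, 17.6 and 104 in sheath, 163, 186 and 113 in stem cells, and 20.4, 27.2 and 79.7 in interfollicular dermis. Papilla lay above all other libraries, and the log2 difference for papilla minus sheath was 3.31 ± 0.59 (limma, adjusted p = 0.000646). Its differences between stem cells and sheath and between stem cells and interfollicular dermis passed, but each was lost in some alternatives, up to limma adjusted p of 0.156 and 0.0729. The first was lost without sheath replicate 4 or 5 or stem cell replicate 1 or 2, and the second without stem cell replicate 2 or interfollicular replicate 1 or 2. Il6st, the shared receptor subunit gp130, averaged 54.7 ± 1.75 FPKM in dermal papilla, 21.2 ± 5.39 in dermal sheath, 72.0 ± 5.68 in dermal stem cells and 19.7 ± 14.7 in interfollicular dermis.

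Cytokines and related messengers known for AU-rich elements, the kind of element the Zfp36 protein binds, made up the next list. Of 12 tested, 9 were higher and 0 lower in papilla minus sheath, 9 and 1 in papilla minus interfollicular dermis, 0 and 7 in sheath minus stem cells, 7 and 1 in stem cells minus interfollicular dermis, and 3 and 0 in papilla minus stem cells. The shares higher were 75.0% in papilla minus sheath and in papilla minus interfollicular dermis, against 16.4% and 13.7% of all tested genes. In sheath minus stem cells 58.3% were lower against 19.6%. In stem cells minus interfollicular dermis 58.3% were higher against 17.9%. In papilla minus stem cells 25.0% were higher, against 8.69% called in either direction. The median log2 difference for papilla minus sheath was 2.58, and 0 passed by limma in sheath minus interfollicular dermis, 1 with an unadjusted p under 0.05. Ccl7, a monocyte chemokine, had 1049, 984 and 818 FPKM in dermal papilla, 36.5, 4.67 and 55.9 in sheath, 1191, 755 and 247 in stem cells, and 17.5, 24.0 and 31.2 in interfollicular dermis. The papilla minus sheath difference of Ccl7 was 5.37 ± 0.72 (limma, adjusted p = 9.45e-05).

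Ptgs2, which encodes the inducible prostaglandin synthase, separated papilla from stem cells. It had 111, 88.6 and 88.6 FPKM in dermal papilla, 9.97, 10.5 and 19.7 in sheath, 20.0, 25.7 and 24.6 in stem cells, and 7.06, 3.91 and 16.4 in interfollicular dermis. Papilla minus stem cells was 1.99 ± 0.39 (limma, adjusted p = 0.00810). The other 2 genes of the list that passed there, Cxcl10 and Cxcl1, were called in 16 and 8 of 21 alternative settings, and both were lost without papilla replicate 1 or 2 or stem cell replicate 4. In stem cell replicate 4, with the immune marker sum of 29.3 FPKM, Ccl2 had 171 and Ccl7 247 FPKM, the lowest of the 3 stem cell libraries and above every sheath and interfollicular library. Whether immune cells had a part in this was not tested.

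**Figure D4:**
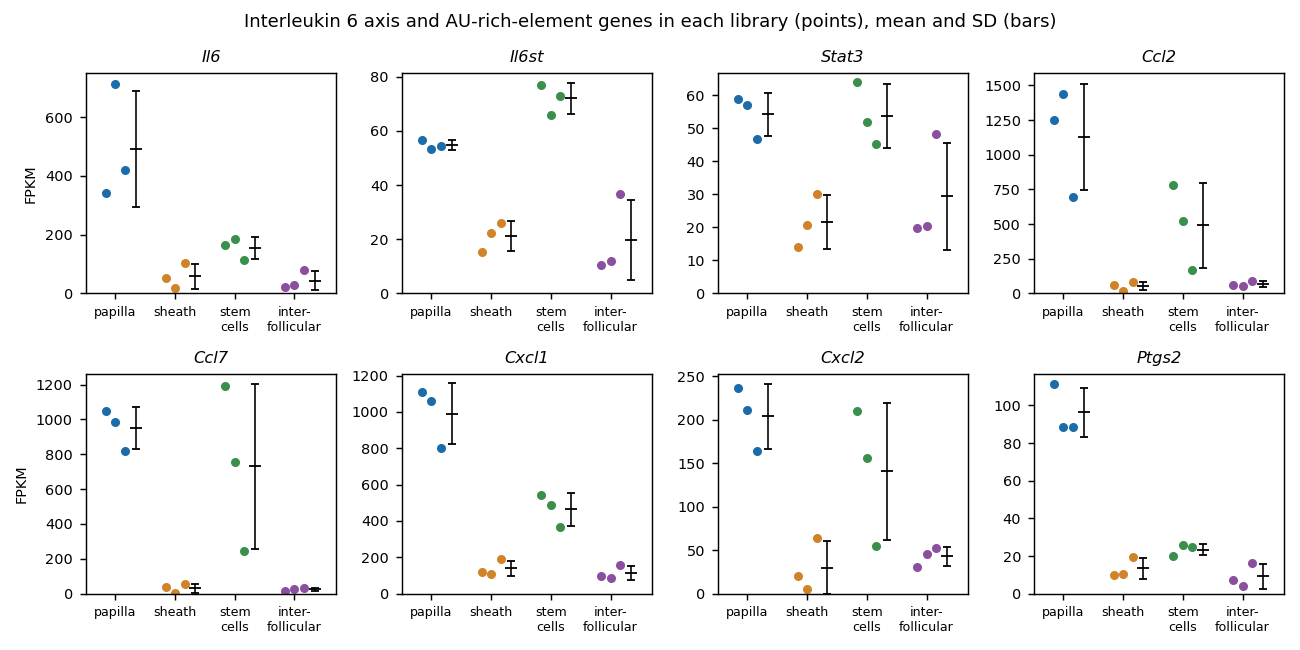
FPKM (y axis, linear) of 8 genes of the interleukin 6 axis and of messengers known for AU-rich elements in each library (points), by population, with mean and SD (n = 3 each). Il6, Cxcl1 and Ptgs2 lie highest in papilla, while Il6st lies highest in stem cells at 65.8 to 77.0 FPKM.

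Of 21 tested kinases and factors that act on immediate early promoters, 3 were higher and 7 lower in papilla minus sheath, 1 and 2 in papilla minus interfollicular dermis, 4 and 3 in sheath minus stem cells, 2 and 3 in stem cells minus interfollicular dermis, and 1 and 0 in papilla minus stem cells. In papilla minus sheath the shares, 14.3% higher and 33.3% lower, were near the 16.4% and 33.4% of all tested genes, and in the other 3 of the first 4 comparisons they lay below those of all genes. The gene called in papilla minus stem cells, the kinase gene Map2k4, was called in 16 of 21 alternatives and lost without papilla replicate 1 or 2 or any 1 stem cell replicate. Elk3, a ternary complex factor, averaged 1.97 ± 0.620 FPKM in dermal sheath and 11.7 ± 2.47 FPKM in dermal stem cells, a log2 difference of −2.10 ± 0.28 (limma, adjusted p = 0.000105). Of 15 heat shock genes, a separate stress response, 2 were higher and 7 lower in papilla minus sheath, 2 and 3 in papilla minus interfollicular dermis, 3 and 2 in sheath minus stem cells, 2 and 0 in stem cells minus interfollicular dermis, and 0 and 1 in papilla minus stem cells. The share lower in papilla minus sheath was 46.7% against 33.4% of all tested genes, and in papilla minus interfollicular dermis 13.3% were higher and 20.0% lower, against 13.7% and 28.6%. In sheath minus stem cells 20.0% were higher and 13.3% lower, against 24.3% and 19.6%. In stem cells minus interfollicular dermis 13.3% were higher against 17.9%. In papilla minus stem cells 6.67% were lower, against 8.69% called in either direction. The gene called in papilla minus stem cells, Hspb1, a small heat shock protein gene, was called in 5 of 21 alternatives and lost, among others, without any 1 stem cell replicate. Hspd1, a mitochondrial chaperone, averaged 1.82 ± 0.950 FPKM in dermal papilla and 9.16 ± 2.94 FPKM in dermal sheath, −1.86 ± 0.33 on the log2 scale (limma, adjusted p = 0.000574). In sheath minus interfollicular dermis 0 genes of these lists passed by limma, with 3 kinases and factors and 4 heat shock genes at an unadjusted p under 0.05.

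The genes whose profile over the 12 libraries was nearest to the mean profile of the 10 were Mcu, Trip10, Ppp1r15a, Sh3pxd2a and Arhgef10, by the mean absolute difference in centred log2(FPKM + 1), which ran from 0.13 to 0.15. The members themselves ran from 0.23 for Fos to 0.84 for Socs3. Ppp1r15a, a stress gene that promotes the restart of protein synthesis and is one of the related factors above, averaged 78.3 ± 9.38 FPKM in dermal papilla, 61.2 ± 8.51 in dermal sheath, 112 ± 14.5 in dermal stem cells and 44.7 ± 12.7 in interfollicular dermis.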

How the data were processed

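The deposited table gives FPKM per library, made by the authors. Per the submitters' processing notes, TopHat2 2.0.13, SAMtools, Cufflinks 2.2.1 and mm10 were used, without stated roles. Strand use in counting and any scaling across libraries are not given in the sources used here. Each value was raised by a pseudocount of 1 and log2-transformed, which understates differences of low genes. A linear model of 4 population means was fitted with limma 3.58.1 (R 4.3.3), with variances moderated along the mean trend (8 residual degrees of freedom, 4.61 from the prior). It covered the 12774 entries that reached 1 FPKM in 3 or more libraries, all p-values being two-sided and Benjamini-Hochberg adjusted over them (threshold 0.05). The code of the fit was run on simulated data with independent libraries and changes in papilla only. That run cannot show how the fit behaves with the correlated libraries here. Relative depth was the commonest ratio among low values, shared by 26.6% to 35.6% of them.

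The genes and lists were chosen with earlier results of these data known. From each list and comparison, up to 3 of the most changed genes that passed could be named, and those given were picked with their values seen. The 7 lists held 138 entries. The 5 genes nearest in profile were taken by rank.

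Papilla and stem cells share replicate numbers 1, 2 and 4. Deviations from the population mean correlated at 0.306, 0.241 and 0.389 between same-numbered libraries, so the numbers were taken to pair these populations. The main fit did not use this pairing, so its p-values for papilla minus stem cells are unpaired. The replicate block was an alternative only. Same-numbered libraries of other populations correlated at −0.191 (stem cells and interfollicular dermis, 1) to 0.139 (stem cells and sheath, 4). Differently numbered libraries also correlated, up to 0.445 between sheath L1 and interfollicular 6. Alternatives were another pseudocount (0.1), a filter at 5 FPKM or none, median-of-ratios scaling, quantile normalization, no trend, fits of the libraries compared, the replicate block and each library left out. The 2 that leave out pairs of libraries were chosen after seeing the data. Promoters are from RefSeq, and transcripts from GENCODE, on GRCm38.p6.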

Additional observations from a re-analysis of the deposited data

How the results depend on the processing

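Of 20 member differences that passed, 16 passed in every one of 22 alternatives, and none changed sign. The other 4 are the Fos differences and the Egr1 difference named above. Of 40 that did not pass, with 22 to 23 alternatives each, 13 passed in at least 1 alternative and 20 changed sign in at least 1. The number of members that passed in papilla minus sheath was 3, and 5 with median-of-ratios scaling. In papilla minus stem cells it was 0, and 1 (Junb) with the replicate block, either in all 12 libraries or in the 6 compared. In papilla minus stem cells it changed no other member call. In all 12 libraries the block also added Atf3 and Egr1 in papilla minus interfollicular dermis and Atf3 in stem cells minus interfollicular dermis, with the values named above. Its interfollicular mean rests on replicates 1 and 2. Its sheath mean rests on replicate 4 alone, the lowest sheath library for all 10 genes, so only effect sizes are given there. Leaving out 1 library gave 3 to 4 members for papilla minus sheath, 0 to 0 for papilla minus stem cells, 5 to 7 for papilla minus interfollicular dermis, 5 to 6 for sheath minus stem cells, 0 to 0 for sheath minus interfollicular dermis and 7 to 8 for stem cells minus interfollicular dermis.

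Counts over all tested genes moved more. Papilla minus sheath had 6365 genes. Counts with the block are left out for comparisons with sheath, whose mean then rests on replicate 4 alone. Papilla minus stem cells had 1110, and 465, 570 and 657 without stem cell replicates 1, 2 and 4, and 663 with only the 6 libraries. Sheath minus stem cells had 5607. Sheath minus interfollicular dermis had 289, and 445 and 103 in the added settings. Without 1 of sheath replicates 4, 5 and L1 or interfollicular replicates 1 and 2 it had 98 to 185. The F test lost Junb without stem cell replicate 1 (limma, adjusted p = 0.0668) or 2 (0.0608). Counts of the related lists moved too. For papilla minus sheath the ranges of these counts are left out, since they include the block. Over the alternatives the medians there stayed above 0 for 5 lists. These were related factors, AP-1 partners, feedback regulators, the interleukin 6 axis and messengers with AU-rich elements. The median of kinases and factors ran there from −0.61 to 0.0016, and that of heat shock genes from −0.999 to −0.399. In stem cells minus interfollicular dermis, genes called higher ran from 12 to 23, 2 to 7, 2 to 8, 1 to 9 and 4 to 8 for the same 5 lists, and the median of feedback regulators from −0.02 to 0.27. The causes were not tested. Absolute depth is unknown and limits low values most.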
